A study of Mus musculus with 8 samples.

Results

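The interferon regulatory factors (IRFs) are transcription factors that share a DNA-binding domain and recognise GAAA repeats in the promoters of antiviral and immune genes. In innate immune cells, IRF3, IRF5 and IRF7 are switched on by phosphorylation downstream of Toll-like receptors and cytosolic nucleic acid sensors, and they drive interferon and cytokine genes. Secreted interferon then acts through its receptor and the complex ISGF3, which binds DNA through IRF9 and raises the transcription of further interferon-stimulated genes. IRF8 works with the Ets factor PU.1 in microglia and other myeloid cells, and IRF4 does so in lymphocytes and some myeloid cells.

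The 8 genes described here are Irf1, Irf2, Irf3, Irf4, Irf5, Irf7, Irf8 and Irf9, taken by their symbols from the 54752 genes of the count tables. The symbols alone decided which genes were taken, but the family was chosen for description with earlier results of these data known. They were measured by RNA-seq in the right cerebral cortex of 8 WT C57BL/6 mice (C57BL/6 J in the methods), 4 after a sham operation and 4 after bilateral carotid artery stenosis (BCAS), at 3 weeks. In BCAS, a wire microcoil around each common carotid artery lowers the cerebral blood flow, and the narrower coil was on the right, the side sampled. According to the methods the mice were adult males, sham mice had the arteries exposed without coils, and each library came from 1 mouse. Each library is bulk tissue, so fewer cells of a type and less RNA per cell cannot be told apart.

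The total counts ranged from 16759364 to 21794435 per library, and where the smallest library held 0 counts of a gene its level could still be up to 0.179 CPM, counting error only. Levels are given as CPM, the count scaled to the library total, after TMM normalization, which corrects for differences in library composition. A gene was called when its adjusted p in edgeR's quasi-likelihood test (Benjamini-Hochberg over 17136 tested genes) was under 0.05 and its log2 fold change (BCAS over sham) was above 1 in size. Neuron markers such as Snap25 and Slc17a7 had a summed level over 8 markers of 7866 to 9481 CPM in sham and 2990 to 6628 CPM in BCAS mice. These values go with neural tissue, and without another brain region to compare they cannot check the cortical label.

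All 8 members passed the filter on low counts and were tested. After BCAS, 5 of the 8 were called higher and none lower, namely Irf7, Irf8, Irf5, Irf9 and Irf1, where 11.0% of all tested genes were called higher and 1.28% lower. Irf3 had an adjusted p under 0.05 in edgeR's test with a change below the fold threshold, so 6 of the 8 were higher by the adjusted p alone, against 19.2% of all tested genes. In the same 5 called members every BCAS mouse lay above every sham mouse, against 18.5% of all tested genes, and no member had every BCAS mouse below every sham mouse, against 16.3%. Irf2 and Irf4 did not pass the test in either form.

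**Figure D1:**
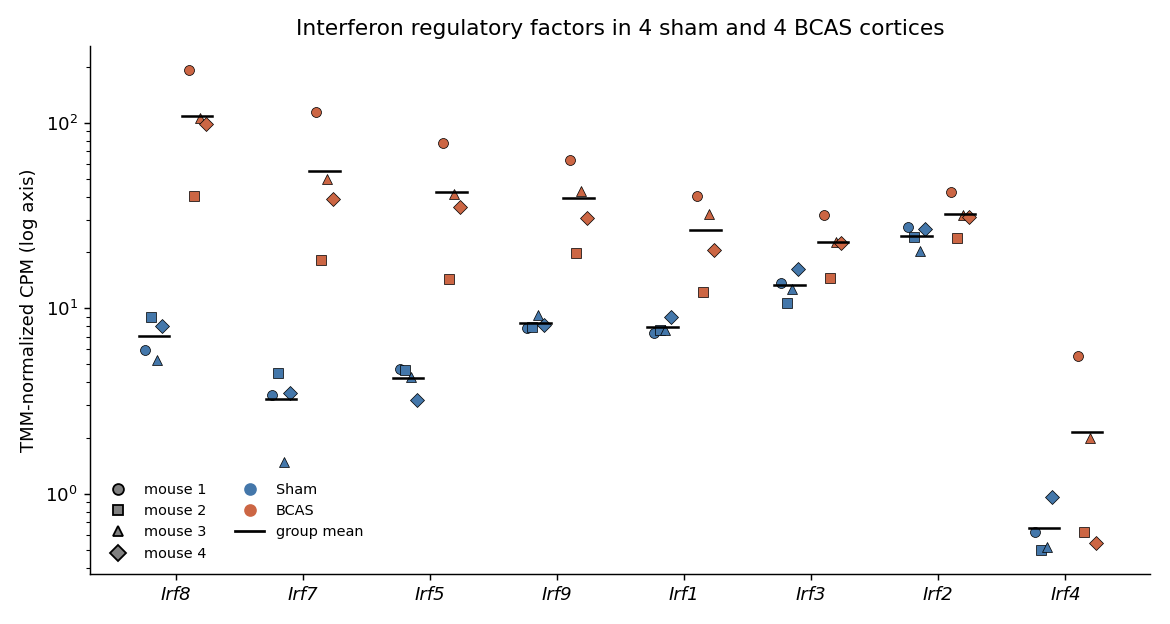
TMM-normalized CPM (log axis) of the 8 members in each of the 4 sham and 4 BCAS mice, with points for mice and bars for group means. For Irf7, Irf8, Irf5, Irf9 and Irf1 all BCAS points lie above all sham points, and for every member the highest point is BCAS mouse 1.

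Irf7, the factor that amplifies type I interferon production and is itself an interferon-stimulated gene, rose by a log2 fold change that did not differ from that of Irf8 beyond the spread between mice. Its level in sham mice 1 to 4 was 3.41, 4.49, 1.49 and 3.5 CPM, and in BCAS mice 1 to 4 it was 114, 18.2, 49.7 and 38.8 CPM. The sham mice were all low and the BCAS mice, though they differed widely, were all higher. The mean rose from 3.22 ± 1.26 CPM (SD, n = 4) to 55.2 ± 41.3 CPM (SD, n = 4), which is 17.1-fold, with a log2 fold change of 4.10 ± 0.58 (SE) and an adjusted p of 0.0028 in edgeR's test. Without BCAS mouse 1 the log2 fold change was 3.48 for Irf7 and 3.55 for Irf8, and limma on log2(CPM + 1) gave 3.50 and 3.60, so which of the pair changed more depended on the fit. Irf7 (ENSMUSG00000025498.15) lies on the minus strand at chr7:141262706-141266481 (mm10, GENCODE vM20), and 1.19% of its exon bases are shared with Phrf1 on the other strand, whose log2 fold change was 0.05 (adjusted p 0.633, edgeR).

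Irf9, the DNA-binding subunit of ISGF3, changed by less. Sham mice 1 to 4 had 7.84, 7.92, 9.21 and 8.15 CPM, and BCAS mice 1 to 4 had 63.3, 19.9, 43.0 and 30.5 CPM. The sham values stood close together, and the lowest BCAS mouse was well above them. The mean rose from 8.28 ± 0.632 CPM to 39.2 ± 18.7 CPM (SD, n = 4 each), or 4.74-fold, with a log2 fold change of 2.24 ± 0.32 (SE) and an adjusted p of 0.0028 (edgeR). Irf9 (ENSMUSG00000002325.15, chr14:55603571-55610030, plus strand) shares 2.28% of its exon bases with Rnf31 on the same strand, and Rnf31 had a log2 fold change of 0.37 (adjusted p 0.0258, edgeR).

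Irf1, a factor induced by interferon gamma that drives antigen presentation genes, was the smallest of the called changes. Its sham values were 7.33, 7.61, 7.61 and 8.99 CPM in mice 1 to 4, and its BCAS values were 40.2, 12.2, 32.4 and 20.5 CPM. The groups did not overlap. The mean rose from 7.89 ± 0.749 CPM to 26.3 ± 12.4 CPM (SD, n = 4 each), or 3.34-fold, with a log2 fold change of 1.74 ± 0.33 (SE) and an adjusted p of 0.00712 (edgeR). Irf1 (ENSMUSG00000018899.16) is at chr11:53770014-53778374 on the plus strand, and 3.40% of its exon bases lie in Gm17334 on the other strand, which had too few counts to be tested.

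Irf8, which microglia need for their identity and reactive state, had the highest level in CPM after BCAS. Sham mice 1 to 4 had 5.97, 8.92, 5.26 and 8.03 CPM, and BCAS mice 1 to 4 had 193, 40.3, 106 and 98.1 CPM. Even the lowest BCAS mouse was far above the highest sham mouse. The mean rose from 7.04 ± 1.72 CPM to 109 ± 62.8 CPM (SD, n = 4 each), or 15.5-fold, with a log2 fold change of 3.96 ± 0.45 (SE) and an adjusted p of 0.00176 (edgeR). Irf8 (ENSMUSG00000041515.10, chr8:120736358-120756694, plus strand) shares no exon base with another gene.

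Irf5, which links Toll-like receptors to proinflammatory cytokine genes in macrophages, showed the same separation. Its sham values were 4.72, 4.62, 4.23 and 3.20 CPM, and its BCAS values were 77.5, 14.3, 41.4 and 35.3 CPM, in mice 1 to 4 of each group. No sham mouse came near the BCAS range. The mean rose from 4.19 ± 0.694 CPM to 42.1 ± 26.3 CPM (SD, n = 4 each), or 10.1-fold, with a log2 fold change of 3.33 ± 0.46 (SE) and an adjusted p of 0.00264 (edgeR). Irf5 (ENSMUSG00000029771.12, chr6:29526625-29541871, plus strand) has the largest shared portion of the family, 14.1% of its exon bases, with Tnpo3 on the other strand. The counting ignored strand and had no multiple-overlap option, so read pairs that fit both genes equally were left out of both counts, and Tnpo3 had a log2 fold change of -0.12 (adjusted p 0.283, edgeR).

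Irf4, best known from B cells and plasma cells, was the least abundant member and the most uneven. It had 11, 8, 9 and 16 counts in sham mice 1 to 4 and 125, 12, 37 and 10 counts in BCAS mice 1 to 4. Only BCAS mice 1 and 3 exceeded the sham range, and BCAS mice 2 and 4 lay within it. The mean was 0.651 ± 0.217 CPM in sham and 2.16 ± 2.32 CPM in BCAS mice (SD, n = 4 each), with a log2 fold change of 1.74 ± 0.73 (SE) and an adjusted p of 0.0937 in edgeR's test. Without BCAS mouse 1 the log2 fold change was 0.70 (adjusted p 0.360, edgeR), and without BCAS mouse 2 it was 2.06 (adjusted p 0.0297). DESeq2 on all 8 mice gave an adjusted p of 0.0467. Irf4 (ENSMUSG00000021356.10) is at chr13:30749226-30766976 on the plus strand and shares no exon base with another gene.

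The B cell and plasma cell markers, like the T and NK cell, blood monocyte and neutrophil, border-associated macrophage and pan-myeloid markers, were highest in BCAS mice 1 and 3, as Irf4 was. Relative to the sham mean, the mean log2 level of the B and plasma cell markers was 4.70, 1.07, 3.82 and 2.26 higher in BCAS mice 1 to 4, so mouse 4, where Irf4 was lower by 0.18 than the sham mean, also had raised markers. The mean of Cd4 and Cd8a, the 2 tested genes of the T and NK cell list, was 4.29, 1.34, 3.43 and 2.44 higher, and that of Ly6c2 and Ccr2, the 2 tested genes of the blood monocyte and neutrophil list, 6.26, 1.82, 5.44 and 3.34 higher in the same mice. No NK cell or neutrophil marker of these lists had enough counts to be tested. Jchain, the joining chain of secreted antibodies, had 10, 5, 11 and 9 counts in sham mice 1 to 4 and 1990, 19, 620 and 68 counts in BCAS mice 1 to 4. Of 7 such markers 3 were tested and 3 were called higher, and their summed level over the list was 2.50 to 3.24 CPM in sham and 5.56 to 119 CPM in BCAS mice. Tested genes with few sham counts, such as Jchain, passed the filter on low counts only through the BCAS mice, which favours a higher call. The part of any of these cell types in the Irf4 values was not tested.

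Irf3, the constitutive factor that starts the interferon response, and Irf2, which competes with IRF1 at shared sites, had the smallest log2 fold changes in edgeR's fit. For Irf3 the sham values were 13.7, 10.6, 12.7 and 16.2 CPM and the BCAS values 32.0, 14.5, 22.6 and 22.5 CPM, in mice 1 to 4 of each group. For Irf3, 3 BCAS mice were above all sham mice, and BCAS mouse 2 was within the sham range. The mean was 13.3 ± 2.31 CPM in sham and 22.9 ± 7.15 CPM in BCAS mice (SD, n = 4 each), or 1.72-fold, with a log2 fold change of 0.78 ± 0.23 (SE) and an adjusted p of 0.0315 (edgeR). The adjusted p of Irf3 rose above 0.05 when any library other than BCAS 2 was left out, up to 0.0870 without sham mouse 2, with log2 fold changes of 0.59 to 0.96 over all 8 omissions. Irf3 (ENSMUSG00000003184.15, chr7:44997648-45002848, plus strand) shares 2.56% of its exon bases with Bcl2l12 on the other strand (log2 fold change 0.52, adjusted p 0.319, edgeR).

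Irf2 had 27.3, 24.1, 20.2 and 26.7 CPM in sham mice 1 to 4 and 42.3, 23.8, 31.9 and 31.1 CPM in BCAS mice 1 to 4. Again BCAS mouse 2 was within the sham range and the other BCAS mice were above it. The mean was 24.6 ± 3.22 CPM in sham and 32.3 ± 7.61 CPM in BCAS mice (SD, n = 4 each), with a log2 fold change of 0.39 ± 0.17 (SE) and an adjusted p of 0.109 (edgeR). Without BCAS mouse 2 the log2 fold change was 0.53 and the adjusted p 0.0146. Irf2 (ENSMUSG00000031627.9) is at chr8:46739732-46847458 on the plus strand and shares no exon base with another gene.

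**Figure D2:**
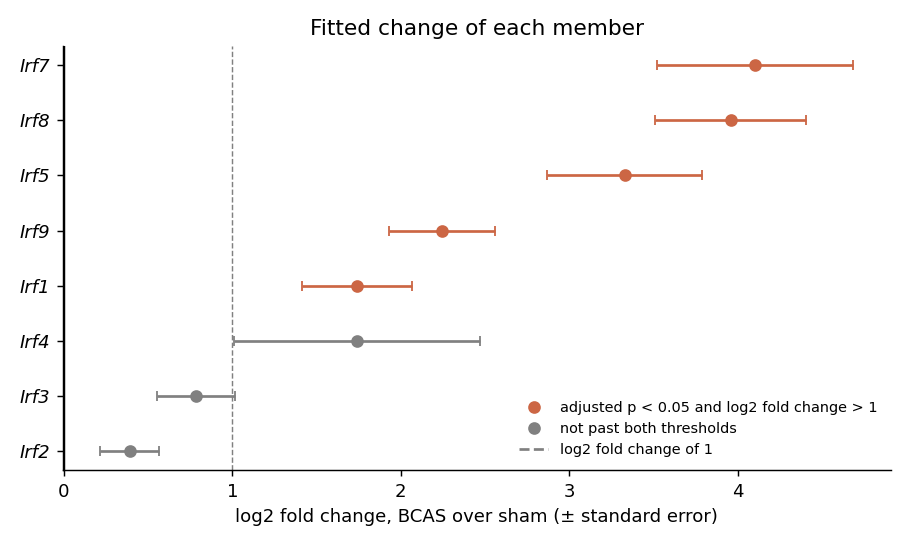
Log2 fold change (BCAS over sham) of the 8 members with its standard error, from edgeR's quasi-likelihood fit, n = 4 mice per group. The values run from 0.39 for Irf2 to 4.10 for Irf7, and the 5 called members lie above the fold threshold of 1 together with Irf4, which was not called.

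The promoters of the members were searched for 4 motifs in the 250 bases before the transcription start, in RefSeq sequences of GRCm38.p6, where all 8 members were found with 11 start sites. The letters searched, on both strands, were GAAA, any 2 bases and GAAA again (the interferon-stimulated response element, ISRE, which ISGF3 and several IRFs bind), TTCNNNGAA (the gamma-activated site, GAS, which STAT dimers bind), GGAA, any 2 bases and GAAA (the Ets-IRF composite element, EICE, which PU.1 with IRF4 or IRF8 binds) and the kappaB motif. Of 32851 such windows over all genes, 2.98% held the ISRE letters, 7.02% the GAS letters, 2.30% the EICE letters and 7.25% the kappaB motif. The EICE letters can overlap the ISRE letters. A match describes the letters present and not a bound site, and no match says only that the letters are not in this window.

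The Irf1, Irf8 and Irf2 stretches below are shown for their matches, with the GAS, ISRE and kappaB matches that fall in them in capitals, and the Irf7 stretch shows the proximal promoter of a called member that had none. The Irf1 stretch is chr11:53769899-53770013, plus strand, 115 to 1 bases upstream of the start, with a GAS match and a kappaB match. The Irf8 stretch is chr8:120736162-120736238, plus strand, 196 to 120 bases upstream, with a pair of GAS matches. The Irf2 stretch is chr8:46739495-46739554, plus strand, 250 to 191 bases upstream, with an ISRE match and a GAS match. An EICE match that begins in its lower-case bases and runs into the ISRE match is not marked apart, and the kappaB match of Irf2 lies outside this stretch. The Irf7 stretch is chr7:141266482-141266581, minus strand, 157 to 58 bases upstream.
Irf1: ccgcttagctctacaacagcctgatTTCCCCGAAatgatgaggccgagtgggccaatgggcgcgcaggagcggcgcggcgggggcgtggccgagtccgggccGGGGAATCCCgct
Irf8: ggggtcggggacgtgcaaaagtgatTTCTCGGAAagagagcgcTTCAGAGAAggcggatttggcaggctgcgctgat
Irf2: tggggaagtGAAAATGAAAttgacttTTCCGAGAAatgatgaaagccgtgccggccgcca
Irf7: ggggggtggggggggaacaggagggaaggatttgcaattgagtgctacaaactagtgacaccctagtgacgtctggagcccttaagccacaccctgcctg

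In Irf1 the GAS match lay 90 to 82 bases and the kappaB match 13 to 4 bases upstream of the start. Irf8 had GAS matches 171 to 163 and 153 to 145 bases upstream. Irf2 had the ISRE match GAAAATGAAA 241 to 232 bases upstream, an EICE match that overlaps it, a GAS match 224 to 216 bases upstream and, nearer the start, a kappaB match 17 to 8 bases upstream. The windows of Irf3, Irf4, Irf5, Irf7 and Irf9 held none of the 4 motifs. The members with GAS matches thus included Irf8 and Irf1, which rose, and Irf2, which did not pass the test, while Irf7, Irf5 and Irf9 rose with no match in the window.

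The members were compared with each other on the difference of their log2 CPM (prior count 2) in the same mouse, for all 28 pairs, with an exact two-sided permutation test over the 70 arrangements of the mice. The smallest p this design allows is 0.0286, and 22 pairs reached it, with an adjusted p of 0.0364 (Benjamini-Hochberg over the 28 pairs). Irf7 and Irf8 changed by different amounts from Irf9 (differences in log2 change of 1.75 and 1.66, exact permutation p 0.0286 each), and Irf5 changed by 0.78 less than Irf7 and 0.69 less than Irf8 (exact permutation p 0.0286 each). Irf9 in turn changed by 0.51 more than Irf1, and Irf1 by 0.85 more than Irf3 and 1.22 more than Irf2, each with the same exact permutation p. Irf5 changed by 0.97 more than Irf9 (exact permutation p 0.0286). With all 8 mice these steps place Irf7 and Irf8 first, then Irf5, Irf9 and Irf1, with Irf3 and Irf2 last.

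Some of these steps lost their call when 1 library was left out, with the direction kept. The adjusted exact permutation p of Irf5 with Irf7 was 0.104 to 0.139 and that of Irf5 with Irf8 0.0696 to 0.0762 without any 1 of the BCAS mice 1 to 4. That of Irf5 with Irf9 was 0.0696 to 0.0727 without any 1 of the sham mice 1 to 4. That of Irf1 with Irf2 was 0.0727 without sham mouse 1, 2 or 4, and so was that of Irf1 with Irf3 without sham mouse 1 or 4. Without BCAS mouse 1, Irf4 with Irf1 and Irf4 with Irf9 gained a call, with an adjusted exact permutation p of 0.0364 each.

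With all 8 mice, the pairs that did not reach the threshold were Irf7 with Irf8, Irf2 with Irf3 and 4 pairs with Irf4. For Irf7 with Irf8, the log2 CPM of Irf7 minus that of Irf8 was -1.17 ± 0.417 in sham mice and -1.08 ± 0.240 in BCAS mice (SD, n = 4 each, exact permutation p 0.743). Irf2 changed by 0.37 less than Irf3 (adjusted exact permutation p 0.0696), and Irf4 by 1.05 less than Irf9 (adjusted exact permutation p 0.1), with Irf4 spread widely among BCAS mice. A prior count of 0.5 took the adjusted p of Irf5 with Irf8 to 0.0696 and left the other pairs on their side of the threshold.

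Levels of different members were compared per length, as CPM per kilobase of exon (RPKM). In sham cortex the order of mean levels was Irf3 (3.86 RPKM), Irf2 (3.33), Irf1 (1.98), Irf9 (1.54), Irf5 (1.44), Irf8 (0.999), Irf7 (0.853) and Irf4 (0.133). The ranges over sham mice overlapped for Irf3 and Irf2 and for each neighbouring pair from Irf9 to Irf7, whereas Irf1 was separate from both of its neighbours and Irf4 was below all others. In BCAS cortex the order was Irf8 (15.5 RPKM), Irf7 (14.6), Irf5 (14.5), Irf9 (7.28), Irf3 (6.65), Irf1 (6.62), Irf2 (4.36) and Irf4 (0.441). There the ranges of all neighbours overlapped except for Irf4, since the BCAS mice differed in the level of every member, and the order of the means did not hold in every mouse. Irf8 was above Irf7 in 3 of the 4 BCAS mice, Irf7 above Irf5 in 1, Irf5 above Irf9 in 4, Irf9 above Irf3 in 2, Irf3 above Irf1 in 2 and Irf1 above Irf2 in 3. Irf3 and Irf2, the most abundant members in sham cortex, stood behind Irf8, Irf7, Irf5 and Irf9 on average after BCAS.

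The summed level of the 8 members was 14.5, 13.9, 12.8 and 15.4 RPKM in sham mice 1 to 4 and 122, 29.8, 69.8 and 58.0 RPKM in BCAS mice 1 to 4. As a share of this sum within each mouse, Irf3 went from 27.3% ± 3.57 to 10.6% ± 2.79 and Irf2 from 23.5% ± 1.66 to 7.23% ± 2.61 (SD, n = 4 each). The share of Irf8 went from 7.04% ± 1.55 to 21.7% ± 2.0, that of Irf7 from 5.97% ± 2.25 to 19.4% ± 3.73 and that of Irf5 from 10.3% ± 2.12 to 19.9% ± 2.33. Irf9 held 11% ± 1.66 in sham and 10.8% ± 1.36 in BCAS mice, and Irf1 14.0% ± 1.01 and 9.78% ± 1.51. These shares are a description of the same counts and were not tested.

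**Figure D3:**
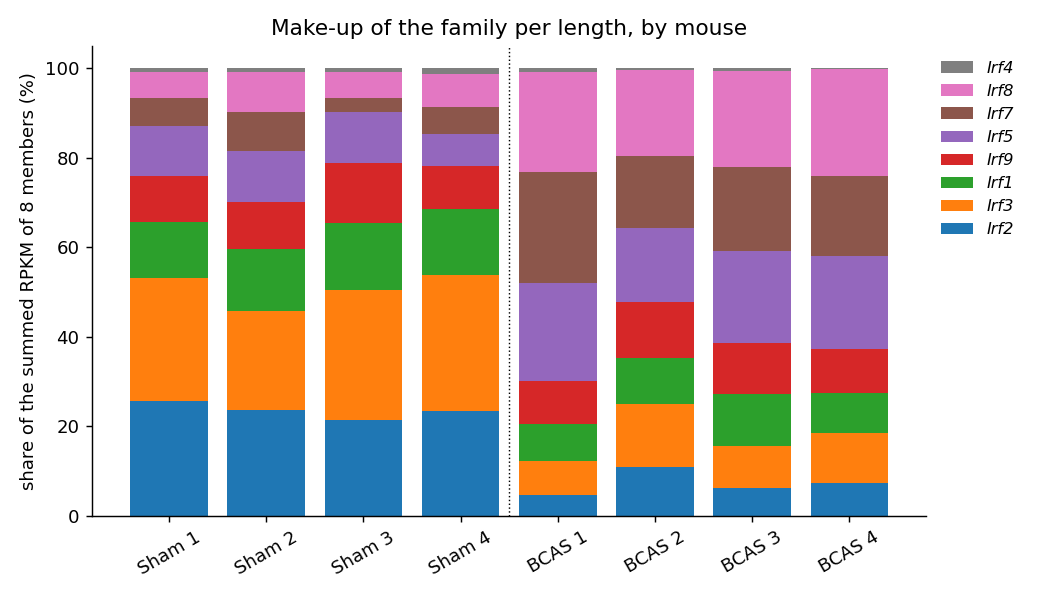
Share of each member in the summed RPKM of the 8 members, in percent, as 1 stacked bar for each of the 4 sham and 4 BCAS mice. Irf2 and Irf3 make up the largest portions in sham mice, and Irf5, Irf7 and Irf8 in BCAS mice.

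The BCAS mice differed from each other, in an order that most members had in common with the pan-myeloid markers. Relative to the sham mean, the log2 level of Irf7 was 5.20, 2.56, 4.00 and 3.65 higher in BCAS mice 1 to 4, that of Irf8 4.78, 2.53, 3.92 and 3.81 higher, and that of Irf9 2.92, 1.26, 2.37 and 1.87 higher. All 8 members were highest in BCAS mouse 1, and 7 of them followed the order of mice 1, 3, 4 and 2, with Irf4 in the order 1, 3, 2 and 4. All 8 members exceeded every sham mouse in BCAS mice 1 and 3, while 7 did in mouse 4 and 5 in mouse 2. The shares of all tested genes with this order, or above every sham mouse in a single BCAS mouse, were not counted. Neither can therefore be called particular to the family. The mean of 10 pan-myeloid markers was 4.68, 2.59, 3.76 and 3.59 higher in BCAS mice 1 to 4, and that of 10 homeostatic microglia markers 3.46, 1.70, 2.38 and 2.56 higher. The mean of the neuron markers was lower by 1.29, 0.35, 0.70 and 0.62 in mice 1 to 4, and that of 6 astrocyte markers was 1.48, 0.68, 1.19 and 1.27 higher, with 2 of the 6 called higher and 5 higher by the adjusted p alone.

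**Figure D4:**
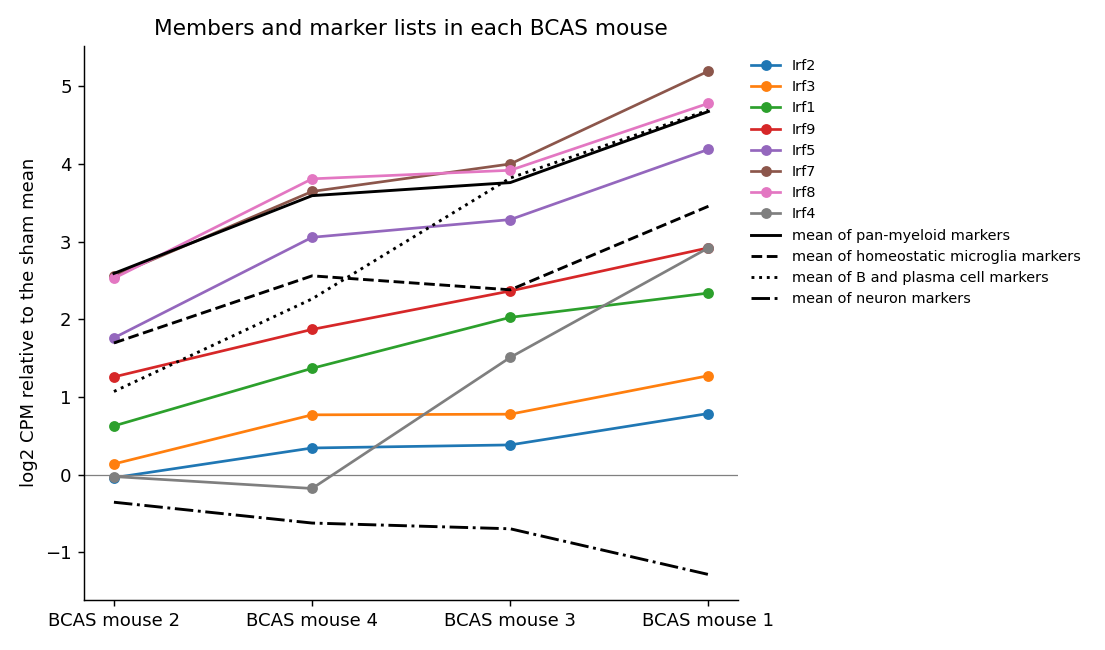
Log2 level above the sham mean (TMM log2 CPM, prior count 2) of the members and of marker lists in the 4 BCAS mice, drawn from mouse 2 on the left to mouse 1 on the right, with lines that only join the values of 1 gene or list. BCAS mouse 1 is highest and mouse 2 lowest for 7 of the 8 members, and the pan-myeloid markers take the same order.

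All 10 pan-myeloid markers (such as Csf1r, Aif1 and Itgam) and all 10 homeostatic microglia markers (such as P2ry12 and Tmem119) were called higher, and their summed levels went from 225 to 268 CPM in sham to 1294 to 5424 CPM in BCAS mice, and from 318 to 382 CPM to 1288 to 4728 CPM. Among other immune lists, 4 of 6 border-associated macrophage markers, 4 of 7 tested dendritic cell markers (with Siglech, which is also in the microglia list), 2 of 2 tested markers of T and NK cells (Cd4 and Cd8a) and 2 of 2 tested markers of blood monocytes and neutrophils (Ly6c2 and Ccr2) were called higher. Cd8a, Ly6c2 and Ccr2 passed the filter on low counts only through the BCAS mice, which favours a higher call. The summed T and NK cell markers were at 2.12 to 4.87 CPM in sham and 5.67 to 61.5 CPM in BCAS mice, and the monocyte and neutrophil markers at 0.845 to 1.56 and 3.91 to 87.5 CPM, with Ly6g at 0 in every library. The dendritic cell markers that did not pass were Flt3, Zbtb46 and Cd209a, with log2 fold changes of -0.14, -0.43 and 1.00. The part of these cell types in the levels of the members was not tested.

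The level of each member was also taken relative to the pan-myeloid markers, as its log2 CPM minus the mean log2 CPM of the 10 markers in the same mouse. On this scale Irf8 was at -0.77 ± 0.26 in sham and -0.66 ± 0.12 in BCAS mice (SD, n = 4 each), a difference of 0.10 (exact permutation p 0.543), and Irf7 differed by 0.19 (exact permutation p 0.743). Irf5 was lower after BCAS by 0.58 on this scale, Irf9 by 1.55, Irf1 by 2.07, Irf4 by 2.60, Irf3 by 2.92 and Irf2 by 3.29, each with an exact two-sided permutation p of 0.0286 (0.0381 adjusted over the 8 comparisons). Of all tested genes 97.2% were lower on this scale by the same exact permutation test and 0.344% higher, since the markers themselves rose. Being lower on this scale, as 6 of the 8 members were, is therefore nothing particular to the members. Irf7 and Irf8 did not pass in either direction. Without any 1 of the BCAS mice 1 to 4 the count was 5, since Irf5 then had an adjusted exact permutation p of 0.0762, with differences of -0.62 to -0.50. The sign for Irf7 depended on sham mouse 3, the lowest for this gene, without which its difference was -0.10.

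The reference mattered for the size and in part for the sign. Relative to the 10 homeostatic microglia markers, where 92.4% of all tested genes were lower and 1.24% higher by the exact permutation test, Irf7 was higher after BCAS by 1.33 and Irf8 by 1.24 (exact permutation p 0.0286 each), and Irf5 was higher by 0.55 (exact permutation p 0.0857). Irf1, Irf2, Irf3 and Irf4 were lower relative to these markers too, by 0.93, 2.16, 1.78 and 1.47 (exact permutation p 0.0286 each). For Irf9 the difference was -0.42 (exact permutation p 0.114).

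**Figure D5:**
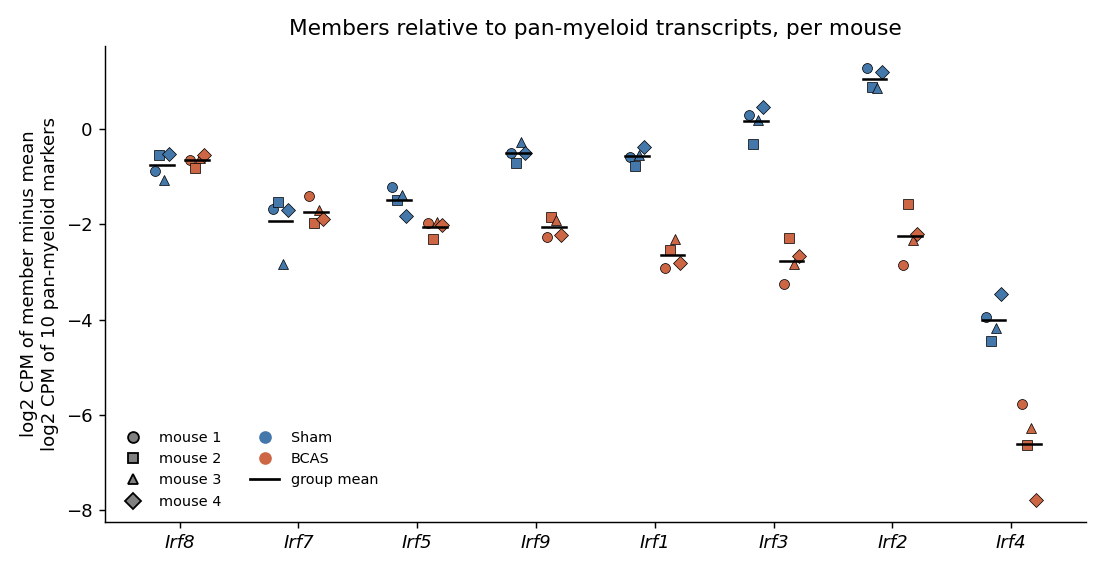
Log2 level of each member relative to the mean of 10 pan-myeloid markers in the same mouse, for 4 sham and 4 BCAS mice, with bars for group means. The BCAS points lie below the sham points for 6 members, while those of Irf7 and Irf8 overlap the sham points.

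Upstream of the family, sensors, adaptors and kinases that activate IRF3, IRF5 and IRF7 were mostly higher. Of 23 such genes, 17 were called higher and none lower, with a median log2 fold change of 2.27 against -0.01 over all tested genes. The largest changes were in Zbp1, a sensor of Z-form nucleic acid (log2 fold change 5.06), the endosomal RNA receptor Tlr7 (3.91), the adaptor Ticam2 (3.90) and Tlr4 (3.17). Tlr8, a relative of Tlr7, was called higher from 3, 10, 0 and 1 counts in sham and 195, 12, 135 and 32 counts in BCAS mice 1 to 4, too few in sham mice for a firm fold. Ticam2 had 1, 7, 8 and 3 counts and Zbp1 8, 13, 10 and 3 in sham mice 1 to 4, so their folds are not firm either. Tlr7, which signals to IRF5 and IRF7, had 74, 59, 83 and 52 counts in sham and 2468, 414, 1071 and 919 counts in BCAS mice 1 to 4. The kinase Tbk1, which phosphorylates IRF3, had a log2 fold change of 0.06 (adjusted p 0.559, edgeR), and the adaptor Traf3 of 0.14 (adjusted p 0.151). Irak1 was at 0.39 (adjusted p 0.0317), below the fold threshold.

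Of 10 receptor, kinase and STAT genes that act upstream of IRF1 or with IRF9, 5 were called higher, with a median log2 fold change of 1.01. Among them were the receptor chains Ifngr1 (log2 fold change 2.05) and Ifnar2 (1.78) and the signal transducers Stat2 (1.15) and Stat3 (1.15). The receptor chain Ifnar1 had a log2 fold change of 0.45 (adjusted p 0.0526, edgeR), and the kinases Jak2 and Jak1 had 0.35 (adjusted p 0.118) and 0.02 (adjusted p 0.872). Without BCAS mouse 1 the count of called genes in this list was 3.

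The interferon genes themselves were near or below detection. Of 21 listed interferon genes none had enough counts to be tested, and 18, with Ifnb1 among them, had 0 counts in all 8 libraries. Ifng, interferon gamma, had 0, 1, 0 and 0 counts in sham and 3, 1, 4 and 0 counts in BCAS mice 1 to 4. Interferon transcripts were therefore not detectable at this depth in the libraries where Irf7, Irf9 and Irf1 were higher, apart from these few counts and those of Ifnk and Ifnz, which had at most 4 in a library.

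Of the genes whose products bind DNA with IRF4 or IRF8, 6 of 9 were tested and 3 were called higher. The count was 5 without sham mouse 2, 3 or 4 or BCAS mouse 2, and 6 with no filter beyond 1 count in total. Spi1, which encodes PU.1, had a log2 fold change of 3.52, the lymphoid factor Ikzf1 3.40 and Batf2 2.76. Batf2 had 1, 6, 3 and 4 counts in sham mice 1 to 4, too few for a firm fold. Spi1 had 70, 73, 67 and 61 counts in sham and 1854, 308, 879 and 724 counts in BCAS mice 1 to 4, again highest in mouse 1 and lowest in mouse 2. Batf3, Jun and Junb did not pass the test, with log2 fold changes of 0.71, 0.22 and -0.26 (adjusted p 0.330, 0.368 and 0.564, edgeR). None of the 3 genes for IRF2-binding proteins was called. Irf2bp2 had a log2 fold change of 0.42 (adjusted p 0.0349, edgeR), Irf2bpl 0.04 and Irf2bp1 -0.22.

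Genes known to limit IRF or interferon signaling rose in part. Of 12, 8 were called higher, with a median log2 fold change of 1.70. The called ones with the largest changes were Trim30a (4.09), Usp18, which blocks signaling at the interferon receptor (3.69), Nlrc3 (3.06), Isg15 (2.96) and Trim21 (2.03). Cyld (-0.14), Rbck1 (0.04) and Otud5 (-0.04) did not pass the test.

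Downstream of IRF9, 17 of 18 listed ISGF3 target genes were called higher, with a median log2 fold change of 3.21. The count was 11 when at least 10 counts were required in every library, since some had few sham counts. Mx1, an antiviral GTPase, had a log2 fold change of 5.70, the oligoadenylate synthetase genes Oas1a 5.27 and Oas2 4.18, and Bst2, which tethers virions, 3.90. In sham mice 1 to 4 Mx1 had 1, 4, 4 and 8 counts and Oas1a 7, 13, 10 and 3, so these 2 folds are not firm. Oas3 had 0, 0, 2 and 0 counts in sham and 640, 52, 185 and 115 counts in BCAS mice 1 to 4, so no fold is given for it. Adar was the exception, with a log2 fold change of -0.18 (adjusted p 0.141, edgeR).

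Of 18 genes known to depend on IRF1, 16 were called higher, with a median log2 fold change of 2.30. The chemokines Cxcl9 (5.53) and Cxcl10 (5.22), the class I transactivator Nlrc5 (4.18), the immunoproteasome subunit Psmb8 (3.76) and the class I light chain B2m (3.54) had the largest log2 fold changes. In sham mice 1 to 4 Cxcl9 had 1, 5, 3 and 0 counts and Cxcl10 5, 4, 11 and 10, so their folds are not firm. Psmb10 (0.28, adjusted p 0.276) and Nos2 (0.58, adjusted p 0.260, edgeR) did not pass the test. The changes of Nlrc5, Psmb8 and B2m exceeded that of Irf1 itself, whose log2 fold change was 1.74.

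Of 7 genes studied as targets of PU.1 with IRF8 or IRF4, 6 were called higher, with a median log2 fold change of 3.25. Cybb, the catalytic subunit of the phagocyte NADPH oxidase, had a log2 fold change of 5.49, and Il1b and Ctsc had 3.25 each. Il1b had 3, 8, 11 and 2 counts in sham mice 1 to 4, so its fold is not firm. Il18 was at 0.34 (adjusted p 0.0284, edgeR), below the fold threshold. Most cytokine genes known to need IRF5 had too few counts, so 1 of 5 was tested, Il12a, at -1.38 (adjusted p 0.0696, edgeR). The untested Tnf had 2, 0, 3 and 3 counts in sham and 142, 5, 44 and 26 counts in BCAS mice 1 to 4, and Il6 had 0, 0, 0 and 2 and then 9, 2, 1 and 4.

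For each member the 3 genes with the most similar pattern were found by Pearson's r of log2 CPM over the 8 libraries, among the 12431 tested genes whose mean count was 100 or more. They were Mrc2, Phf11d and Rubcnl for Irf7, Ifi27, Fyb and Cd86 for Irf8, Cmtm3, Tspan4 and Dock8 for Irf5, Ehd4, Akna and Eif2ak2 for Irf9, and Igf1, Lipa and Dram2 for Irf1. For Irf3 they were E2f5, Tmco3 and Dusp11, for Irf2 Trp53inp2, Kdelc2 and Kif13b, and for Irf4 Itch, Nck1 and Abraxas2. The closest gene had an r of 0.9995 for Irf1 and 0.982 for Irf4, the highest and the lowest of the 8. These libraries share the group difference and the order of the BCAS mice, so the values describe likeness only.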

How the data were processed

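The authors used Trim Galore on the paired reads, HISAT2 for alignment to mm10 and SAMtools 1.9 for sorting, and deposited the counts of read pairs per gene from featureCounts, not normalized, for 54752 genes. The file headers name featureCounts 2.0.1 and GENCODE vM20 with no strand or multiple-overlap option, whereas the submitters' processing notes name 1.6.3. Gene IDs were matched to symbols through a GENCODE table, with the version for 53861 IDs and without it for 54723.

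Counts were tested with edgeR 4.0.16 (R 4.3.3): TMM, filterByExpr (minimum count 10, minimum total 15), quasi-likelihood F-test, Benjamini-Hochberg over 17136 genes. A call needed an adjusted p under 0.05 and a log2 fold change above 1 in size, the study's thresholds. The SE is the log2 fold change divided by the square root of F. RPKM is TMM-normalized CPM per kilobase of summed exon length. For single values the exact two-sided permutation test used all 70 arrangements of the libraries. The fit was tested on simulated data. Alternatives used other normalizations, filters and tests (DESeq2 1.42.0, limma 3.58.1), the replicate number as a block, another prior count or marker list, and each library left out.

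The members, lists and rules were chosen with earlier results of these data known. Genes named are the members, their 3 most similar genes, in each list up to 5 called genes with the largest change and up to 3 not called with the largest CPM, and genes sharing exons with a member; a few genes the rule names are not reported here. Jchain, Ifng, Ifnb1, Ifnk, Ifnz, Tnf, Il6, Ly6g, Cd4, Cd8a, Ly6c2, Ccr2, Siglech, Flt3, Zbtb46, Cd209a and marker examples were chosen outside that rule, after their values were seen. Cell type lists without a value above were oligodendrocyte, endothelial and hemoglobin markers (0 called).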

Additional observations from a re-analysis of the deposited data

Results flagged for a closer look

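Among the 16 sets of 4 CPM values, 1 per member and group, 1 set held a mouse that stood apart from its group by Dixon's test. It was Irf1 in sham mice, where sham mouse 4 had 8.99 CPM and the gap to its nearest neighbour was 0.830 of the range. Chance marks about 1 in 20 such sets. The value was below all BCAS values of Irf1, and without sham mouse 4 the log2 fold change of Irf1 was 1.80 (adjusted p 0.0259, edgeR).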

How the results depend on the processing

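Of 680 recomputed values, 627 kept their direction and their side of the threshold or stayed within 1.5 times the count. The 5 called members were called in every fit, with adjusted p values (edgeR, DESeq2 or limma) up to 0.0303, and the count of called members was 5 or 6, the sixth being Irf4 with DESeq2 or without BCAS 2 and Irf3 at the adjusted p alone. The adjusted p alone gave 5490 genes in place of 2097 and 1 in place of 0 IRF2-binding genes. With no filter beyond 1 count, 6 partners of IRF4 or IRF8 and 2 cytokine genes of IRF5 were called, and with at least 10 counts in every library 11 ISGF3 targets. Leaving out each library gave 1644 (without BCAS 1) to 2967 (without BCAS 2) genes, 3 to 6 receptor and ISGF3 partner genes (3 without BCAS 1), 3 to 5 partners of IRF4 or IRF8 (5 without sham 2, 3 or 4 or BCAS 2) and 0 to 1 cytokine genes of IRF5 (1 without any 1 sham library or BCAS 2). The cause was not tested. Relative to homeostatic in place of pan-myeloid markers, Irf5 turned from -0.58 to 0.55. Relative to pan-myeloid markers, leaving out each library took Irf7 from -0.10 (without sham 3) to 0.33, and 5 of the 22 pairs named above and Irf4 with Irf5 (without sham 4) lost their call. Whether the replicate numbers pair the mice is not stated. The correlations of same-numbered mice were -0.05, -0.10, -0.01 and 0.00, which gave no sign of pairing but cannot exclude it. With the replicate block 1809 genes and 5 members were called.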
